A study of Canis lupus familiaris with 2 samples.

Results

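The ion channel subunit genes of the canine expression array were compared between J3T-1 and J3T-2, subclones of one canine glioma cell line that share a parental line and differ in invasion and angiogenesis. Members were all probe sets (sets of short array probes for one transcript) annotated with exactly 1 gene symbol, where that symbol began with KCN, CACN, CLCN or P2RX, or with SCN, TRPC, TRPM or TRPV and a digit. This name rule gave 249 of the 29254 probe sets with 1 symbol and 145 of 15115 genes. By ion, 79 genes were named as potassium channel subunits, 22 as calcium channel subunits, 9 as sodium channel subunits and 7 as CLC chloride channels and exchangers. The other 28 were placed as channels that pass mixed cations (P2X and TRP names). These 28 include TRPC4AP, a cytosolic scaffold protein that is not a channel, and it stays in the counts and medians of that class.

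The J3T-1 group was 1 array of the J3T-1 subclone, and the J3T-2 group 1 array of the J3T-2 subclone. Both groups were untreated cells cultured in DMEM with fetal bovine serum, penicillin and streptomycin, and neither carried a stated transgene or deletion. Each subclone is a single clonal line grown without the other cells of a tumour, so differences hold for these lines in culture. Neither subclone has a replicate array. No test between the subclones was possible, and each fold below compares these 2 arrays. In RNA from a whole culture, fewer cells with a transcript and less of it per cell cannot be told apart.

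Ion channels are membrane proteins that let selected ions move down their gradients. Potassium channels set the resting potential, voltage-gated sodium and calcium channels open on depolarization, CLC proteins move chloride across plasma, endosomal and lysosomal membranes, P2X receptors open on extracellular ATP, and TRP channels respond to lipids, stretch, temperature or store depletion. Most are built from pore-forming subunits with accessory subunits that change gating or trafficking. In glioma cells, potassium and chloride channels have been studied for the volume changes that accompany migration through narrow spaces, and calcium-permeable TRP and P2X channels for calcium signals in growth and motility.

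Most ion channel genes gave a signal at or below the median of each array. A probe set was counted as above the median when its deposited signal exceeded 19.0 in J3T-1 or 22.0 in J3T-2, the medians over all non-control probe sets, and each gene took the value of the probe set whose log2 signal was highest on average. Of the 249 member probe sets, 36 (14.5%) were above the median in J3T-1 and 35 (14.1%) in J3T-2, against 55.6% and 55.8% of all probe sets with 1 symbol. By gene, 27 of 145 (18.6%) were above it in J3T-1 and 26 (17.9%) in J3T-2, against 58.7% and 58.4% of all genes. On at least 1 array 30 members (20.7%) passed, against 62.4% of all genes, and these 30 are called measured. Signals were above the median on both arrays for 23 of the 145 members, where 54.7% of all genes were, in J3T-1 alone for 4 and in J3T-2 alone for 3. The other 115 had no usable ratio, and their signals have no order among themselves.

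By ion, the shares rest on few genes and were not tested against each other. Chloride channels had 3 of 7 genes above the median on each array (42.9%), mixed cation channels 8 of 28 (28.6%) on the J3T-1 array and 7 (25%) on the J3T-2 array, calcium channel subunits 4 of 22 on each array (18.2%), potassium channel subunits 11 of 79 on each array (13.9%) and sodium channel subunits 1 of 9 (11.1%). The 11 potassium genes were not the same on the arrays: 8 were above the median on both, 3 in J3T-1 alone and 3 in J3T-2 alone.

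**Figure D1:**
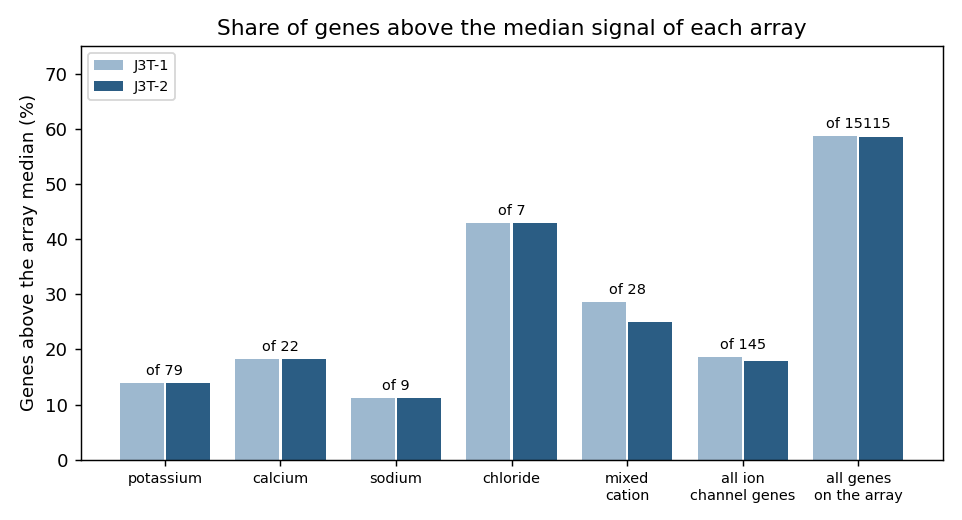
Percentage of genes whose signal was above the array's median, by ion class, for all ion channel genes and for all genes with 1 symbol; light bars are J3T-1, dark bars J3T-2, and the number over each pair is the number of genes in it. Every ion class lies below the 58.7% and 58.4% of all genes, with chloride channels at 42.9% and sodium channels at 11.1%.

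Several whole families were at or below the median on both arrays. These were the 12 inward rectifier potassium channels (KCNJ), the 6 TRPV channels, the 7 calcium channel gamma subunits (CACNG) and the 2 sodium channel beta subunits. KCNJ10, the inward rectifier of mature astrocytes, had signals of 3.1 and 7.8. KCNMA1, the pore of the large-conductance calcium-activated (BK) channel, had 6.7 and 9.9 on its only probe set, while KCNMB1, a BK beta subunit, had 167.9 in J3T-1 against 206.1 in J3T-2. A signal below the median does not show that a transcript was absent. Voltage-gated potassium pore subunits had 5 of 30 genes measured, tandem-pore potassium channels (KCNK) 3 of 13, calcium- or sodium-activated potassium channels 1 of 8, and potassium accessory subunits 5 of 16.

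Among the 30 measured members, 2 reached a 2-fold difference towards J3T-2 (KCNS3 and P2RX7) and 0 did so towards J3T-1. The same call was met towards J3T-2 by 7.28% of the 9433 measured genes of the array, and towards J3T-1 by 3.49%. The direction of the calls depended on array scaling. All measured genes had a median log2 ratio (J3T-2 over J3T-1) of 0.17, and with ratios centred on that median 1 member reached it towards J3T-2 (KCNS3) and 3 towards J3T-1 (KCNN4, TRPC1 and KCNB2), against 461 and 446 of all measured genes. The measured members had a median log2 ratio of -0.11, or -0.29 from that of all genes. Of the 23 above the median on both arrays, 9 had a ratio towards J3T-2, where 65.4% of all such genes did, and 14 (60.9%) a ratio towards J3T-1, against 34.5% of all such genes, with centring 15 (65.2%) lay towards J3T-1 against 51.0%. By ion, counting bounds at their value, the medians were -0.16 for potassium, -0.20 for calcium, -0.08 for chloride and 0.09 for mixed cation channels. The mixed cation median turned to -0.09 with centring. Over genes above the median on both arrays, the medians were -0.31 for potassium and 0.35 for mixed cation channels. The latter stayed at 0.18 with centring. Without probe sets that can match several transcripts (suffix _s_at or _x_at), the median over the 18 members left was 0.12. All measured genes then had 0.18, so the sign of the members' median changed but it still lay below that of all genes. Raising the floor to the 75th percentile left 6 members, whose median of 0.27 was above the 0.15 of all measured genes. The members as a set thus had no direction that held in every setting. The spread between probe sets of the same gene is the only error that can be had, and it is technical. Its SD in log2 ratio, over genes with several probe sets above the median on both arrays, was 0.38 where the mean signal was under 2 times the floor, 0.34 at 2 to 4 times and 0.24 at 4 to 16 times.

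**Figure D2:**
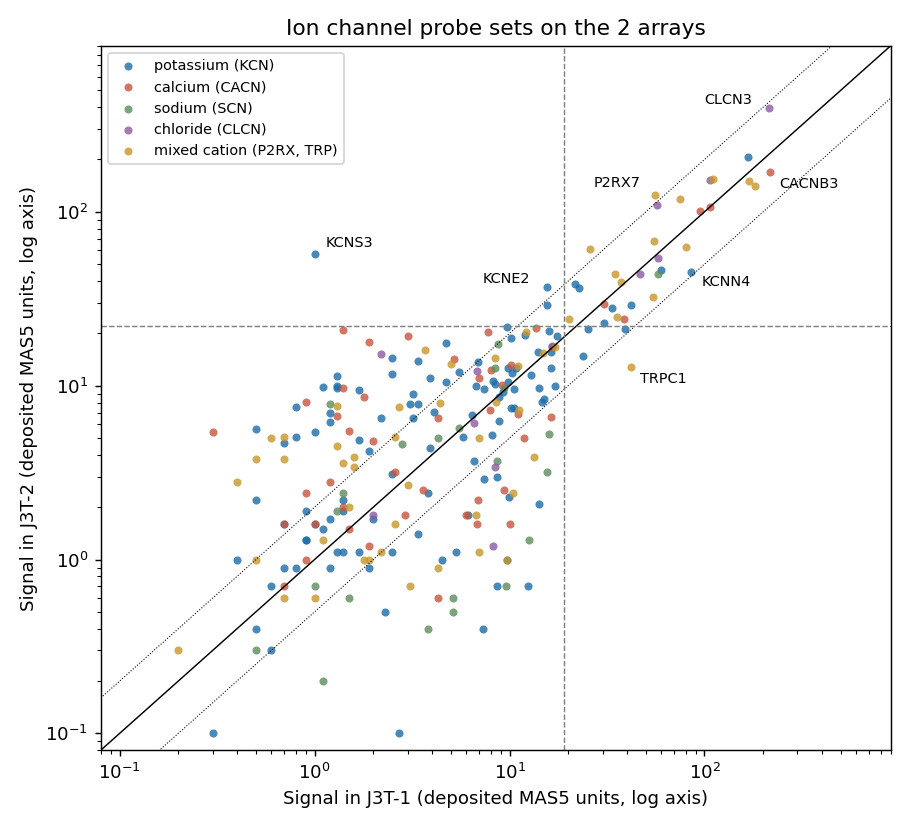
Signal of each of the 249 ion channel probe sets in J3T-1 (x axis) and J3T-2 (y axis), in deposited MAS5 units on log axes, coloured by ion class; dashed lines mark the array medians of 19.0 and 22.0, the solid line equal signal and the dotted lines 2-fold. Most points lie in the lower left, below both medians, and among probe sets above a median that of KCNS3 (1.0 and 57.1) lies furthest from the line of equal signal.

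KCNS3 had the largest fold among the members, counting bounds at their value. It encodes a voltage-gated potassium channel subunit that is electrically silent alone and modifies the pores it joins. Its single probe set read 1.0 for J3T-1 and 57.1 for J3T-2. J3T-1 was thus below the median of its array and J3T-2 above, so that the fold is a lower bound, at least 3.0-fold towards J3T-2. KCNS3 was measured through J3T-2 alone, so with this floor its ratio could only lie towards J3T-2. The value was at least 2-fold towards J3T-2 in all 8 settings that could measure it, with log2 ratios from 1.36 to 3.70, and with the floor at the 75th percentile neither array reached the floor. These settings reuse the same arrays and the same probe set, so their agreement is not independent.

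No other voltage-gated potassium pore subunit met the 2-fold call before centring. KCNQ1, the pore of a slow delayed rectifier, had signals of 21.8 in J3T-1 against 38.5 in J3T-2 (1.77-fold), the former just above the median. KCNB2, a delayed rectifier pore subunit, had 39.0 in J3T-1 against 21.3 in J3T-2, the latter just under the median, which makes it at least 1.77-fold towards J3T-1. KCNA2, a Shaker-type pore subunit, had 33.5 and 28.1, and KCNH3, of the ether-a-go-go family, 25.2 and 21.3, where J3T-2 was again under the median and the fold is a lower bound. KCNB2 and KCNH3 were measured through J3T-1 alone, so their ratios could only lie towards J3T-1. The values of KCNQ1, KCNB2, KCNA2 and KCNH3 were close to the floor on both arrays, and their other probe sets were below the median on both. In log2 ratio KCNQ1 was 0.82 and KCNA2 -0.25, where the SD between probe sets of equally dim genes was 0.38. That SD holds no variation between arrays or cultures, so it cannot test either ratio.

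KCNN4, the intermediate-conductance calcium-activated potassium channel, was the potassium gene above the median on both arrays with the largest ratio towards J3T-1. Its single probe set had 85.0 in J3T-1 against 45.3 in J3T-2, 1.88-fold (log2 ratio -0.91). With ratios centred on all genes it was -1.08, and so past 2-fold. Tandem-pore channels, which carry background potassium current, also had ratios towards J3T-1: KCNK16 had signals of 42.2 and 29.0, KCNK4, a mechanically gated member, 30.4 and 23.0, and KCNK1 23.9 and 14.9, the last at the floor in J3T-2. Their folds were 1.46, 1.32 and at least 1.09. KCNK1 was measured through J3T-1 alone, so its ratio could only lie towards J3T-1. The other probe sets of KCNK16 were below the median on both arrays. Of all genes above the median on both arrays, 34.5% had a ratio towards J3T-1.

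Potassium accessory subunits had 5 measured genes. Of these, 3 were above the median on both arrays, and 2 of the 3 had a ratio towards J3T-2, against 65.4% of all genes above both medians. KCNE2 and KCNIP2 were measured through J3T-2 alone, so their ratios could only lie towards J3T-2. KCNE2, a single-span subunit that joins several voltage-gated pores, had 15.6 in J3T-1 against 37.1 in J3T-2 on the probe set used, at least 1.95-fold, and its other 6 probe sets were at or below the median on both arrays. KCNIP2, a calcium-binding partner of A-type channels, had 15.6 and 29.2, at least 1.54-fold. The BK beta subunits KCNMB4 and KCNMB1 had 22.8 and 36.5 (1.60-fold), and 167.9 and 206.1 (1.23-fold). KCNAB2, a cytosolic beta subunit, went the other way, with 60.2 in J3T-1 against 46.5 in J3T-2 (1.29-fold). None of the 5 met the 2-fold call, and for KCNE2 and KCNIP2, where only J3T-2 was above the median, the values are lower bounds that do not limit the fold from above.

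**Figure D3:**
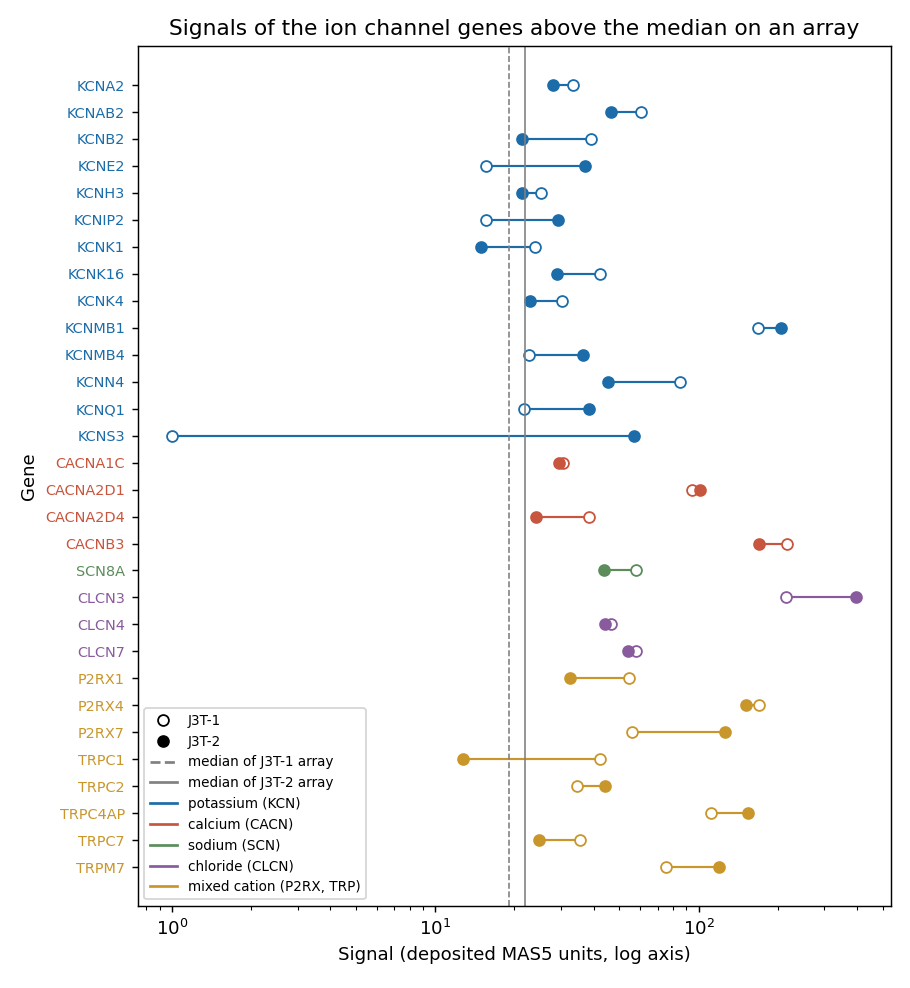
Signal of the 30 measured ion channel genes in J3T-1 (open circles) and J3T-2 (filled circles), in deposited MAS5 units on a log axis, grouped and coloured by ion, with the array medians as vertical lines. KCNS3 spans 1.0 to 57.1, TRPC1 lies at 42.2 in J3T-1 against 12.8 in J3T-2, and most other pairs lie within 2-fold of each other.

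Calcium channel subunits were within 2-fold on all 4 measured genes. CACNA1C, the pore of the L-type channel, had signals of 30.6 in J3T-1 against 29.6 in J3T-2 on the probe set used. Its other 2 probe sets and those of the other 8 pore genes (CACNA1) were at or below the median on both arrays. CACNA2D1, an extracellular alpha-2-delta subunit that aids channel trafficking, had 94.7 and 101.4. CACNA2D4, of the same family, had 38.5 and 24.1 on the probe set used, which is 1.60-fold towards J3T-1. The other probe sets of CACNA2D4 were below the median on both arrays. CACNB3, a cytosolic beta subunit, had 216.9 and 169.4 (1.28-fold towards J3T-1), while its other probe set had 107.3 and 106.2 and a log2 ratio of -0.01. CACNA2D1 turned from 0.10 to -0.08 in log2 ratio with centring, so that all 4 genes then lay towards J3T-1.

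SCN8A was the only sodium channel gene under the name rule (SCN and a digit) to lie above the median. It encodes a voltage-gated sodium channel pore found at the axon initial segment of neurons. One of its 2 probe sets had 58.1 in J3T-1 against 43.8 in J3T-2 (1.33-fold towards J3T-1), and the other had 15.6 and 3.2, below both medians. The remaining 8 genes, among them SCN2A, SCN3A and SCN9A, were at or below the median on both arrays.

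Among CLC proteins, CLCN3 differed most. It encodes an endosomal chloride and proton exchanger that has also been studied in glioma cell volume regulation. Its 3 probe sets had 214.8, 106.6 and 56.8 in J3T-1 and 397.2, 151.8 and 109.3 in J3T-2. All 3 were higher in J3T-2, by 1.85-fold, 1.42-fold and 1.92-fold, with an SD of 0.24 between their log2 ratios. CLCN4, an endosomal exchanger, had 46.6 and 44.0, and CLCN7, the lysosomal exchanger, 58.0 and 54.0. These 2 differed by 1.06-fold and 1.07-fold, less than the SD between probe sets. CLCN1, CLCN2, CLCN5 and CLCN6 were at or below the median on both arrays.

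P2RX7, the ATP-gated channel known for its low ATP affinity and for large-molecule permeability on prolonged opening, was the only member at least 2-fold apart with both arrays above the median. The probe set used had 56.0 in J3T-1 against 125.8 in J3T-2, and the other had 25.8 and 61.2. Both probe sets were above the median on both arrays and higher in J3T-2, by 2.25-fold and 2.37-fold. Their log2 ratios of 1.17 and 1.25 had an SD of 0.06. The first fell to 0.99 with centring, just under 2-fold, and a floor at the 75th percentile, which J3T-1 does not reach, gave 0.24.

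The other measured P2X genes went towards J3T-1. P2RX4, a rapidly opening receptor also found in lysosomes, had 170.2 and 151.1 on one probe set and 181.2 and 141.7 on the other, log2 ratios of -0.17 and -0.35. P2RX4 and P2RX7 are neighbouring protein-coding genes in the RefSeq annotation of the dog assembly UU_Cfam_GSD_1.0, which pairs 137 of the 145 members with a gene by identifier. Of 9 adjacent pairs of members found there it was the only one with both genes measured, and the neighbours differed in direction. P2RX1 had 54.3 in J3T-1 against 32.4 in J3T-2, 1.68-fold higher in J3T-1. P2RX2, P2RX3, P2RX5 and P2RX6 were at or below the median on both arrays.

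**Figure D4:**
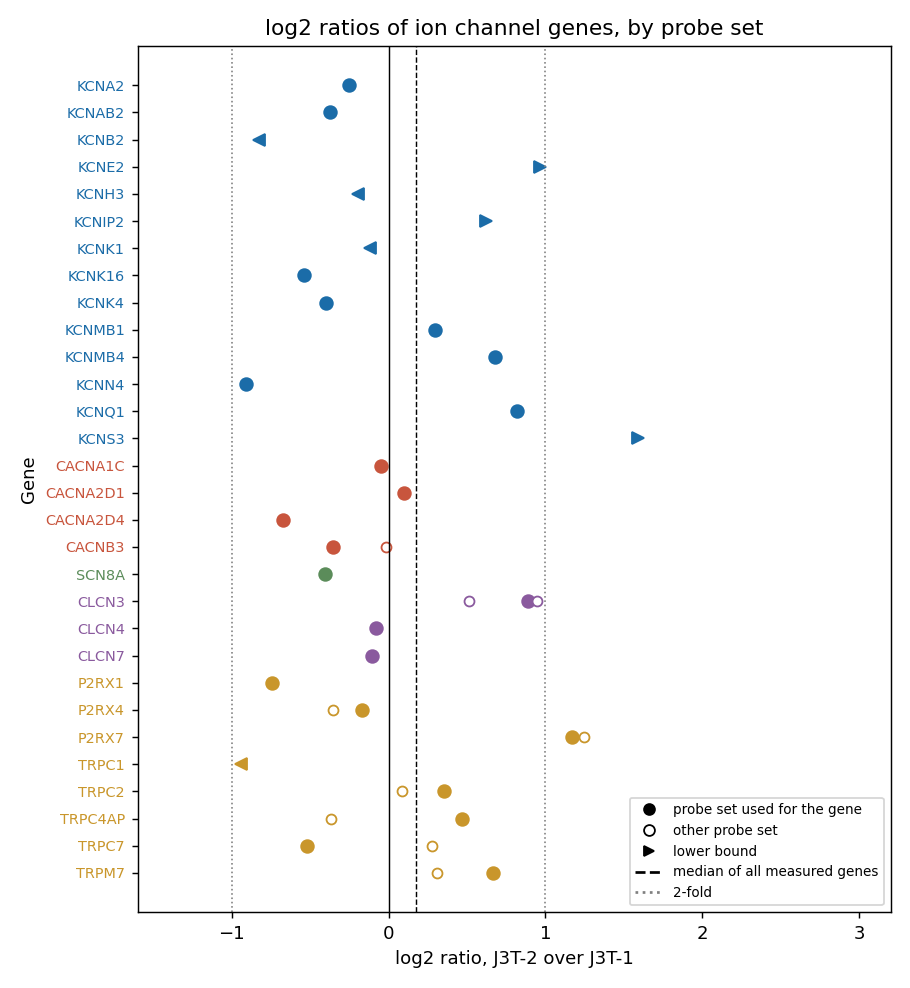
log2 ratio of J3T-2 over J3T-1 for the 30 measured ion channel genes, by probe set: filled symbols are the probe set used for the gene, open symbols its other probe sets above the median, triangles lower bounds, the dashed line the median of all measured genes (0.17) and the dotted lines 2-fold. KCNS3 and P2RX7 lie beyond 2-fold, the 3 CLCN3 probe sets lie together towards J3T-2, and the probe sets of TRPC4AP and TRPC7 fall on both sides of 0.

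Of the TRP names, 4 TRPC genes and 1 TRPM gene were measured, and the 4 include the scaffold gene TRPC4AP, which is not a channel. TRPC1, a subunit of receptor-operated and store-linked cation channels, had 42.2 in J3T-1 against 12.8 in J3T-2 on its single probe set, at least 1.92-fold towards J3T-1. J3T-2 was below the median of its array, so the ratio could only lie towards J3T-1, and with centring the bound was past 2-fold (log2 ratio -1.11). TRPM7, a magnesium- and calcium-permeable channel fused to a kinase, had 75.1 and 55.1 in J3T-1 and 119.3 and 68.1 in J3T-2 on its 2 probe sets, both higher in J3T-2, by 1.59-fold and 1.24-fold. TRPC2 had 34.6 and 44.1, and TRPC7, a diacylglycerol-gated channel, 35.4 and 24.7. The other probe set of TRPC7 above the median had 20.1 and 24.3, so its probe sets disagree in direction. The scaffold gene TRPC4AP also disagreed with itself, at 111.1 and 153.7 on one probe set and 80.6 and 62.5 on the other.

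A wider list of 94 other channel, pump and junction genes, of which 83 were on the array and 43 measured, held more differences. In it 5 genes passed 2-fold towards J3T-2 and 10 towards J3T-1, or 34.9% of those measured, against 10.8% of all measured genes. The list was drawn up with earlier results known, FGF13, FGF14, ANK3 and GJA1 among them, so its share is no independent evidence. Of 12 measured chloride and anion genes, 5 passed 2-fold, all towards J3T-1, where 3.49% of all measured genes did. Of these, ANO4 and CLIC3 were measured through J3T-1 alone, so their ratios could only lie towards J3T-1. ANO4, of the TMEM16 family of channels and scramblases, had 196.3 in J3T-1 against 2.7 in J3T-2, at least 8.92-fold. CLIC3, a chloride intracellular channel protein, had 77.8 and 12.4, at least 3.54-fold. ANO5 had 126.8 and 57.0 (2.23-fold), TTYH2 67.6 and 30.6 (2.21-fold, with a log2 ratio of -0.46 by its other probe set) and CLIC4 1626.1 and 797.2 (2.04-fold, with log2 ratios of -0.86 and -0.91, under 2-fold, by its other 2 probe sets). LRRC8A, the obligatory subunit of the volume-regulated anion channel, had 41.6 and 65.8 (1.58-fold towards J3T-2), while its partner subunit gene LRRC8C had 407.9 and 241.5 (1.69-fold towards J3T-1).

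The store calcium sensors STIM1 and STIM2 had signals of 45.8 and 22.8, and of 375.6 and 187.2, each 2.01-fold higher in J3T-1, although the other probe set of STIM1 gave a log2 ratio of -0.33. Of the 13 measured genes for store, intracellular and mechanosensitive calcium channels these 2 alone met the call, and the median log2 ratio of the 13 was 0.18, near the 0.17 of all measured genes. The inositol trisphosphate receptor genes went both ways, with log2 ratios of 0.18 for ITPR1, -0.71 for ITPR2 and -0.60 for ITPR3. Ratios towards J3T-2, the direction of 65.4% of all genes above both medians, were found for ORAI2 (0.51) and ORAI3 (0.38), pore subunits of store-operated channels. The lysosomal channel genes MCOLN1 (0.53) and TPCN2 (at least 0.99) also had such ratios. TPCN2 was measured through J3T-2 alone, so its ratio could only lie towards J3T-2. The polycystin gene PKD2 (0.98) and MCU, the mitochondrial calcium uniporter (0.94, and at least 0.32 by its other probe set), also lay towards J3T-2. MCOLN3, of the same family as MCOLN1, lay towards J3T-1 (-0.48), as did PIEZO1 (-0.26). Of 8 measured pump and transporter genes, 0 were 2-fold apart in either direction, which with so few genes is near the 10.8% of all measured genes. PANX1, a channel that releases ATP, the ligand of P2X receptors, had 25.2 in J3T-1 against 137.4 in J3T-2 (5.45-fold). The gap junction genes went opposite ways: GJC1 had 76.7 and 188.5, 2.46-fold higher in J3T-2, and GJA1 721.8 and 291.5, 2.48-fold higher in J3T-1.

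All 5 measured genes for sodium channel partners were at least 2-fold apart on the probe set used, against 10.8% of all measured genes. FGF13, FGF14 and ANK3 were put on the list with their differences known, so this count is a description. FGF13, an intracellular protein that binds sodium channels and microtubules, had 20.4 in J3T-1 against 414.1 in J3T-2 on the probe set used, a log2 ratio of 4.34, while its other probe set gave 1.80. FGF14, of the same family, had 390.3 and 56.0, log2 ratios of -2.80 and, by its other probe set, -2.35. ANK3, the ankyrin that anchors sodium channels at the axon initial segment, had 305.5 and 11.3, a bound of 13.9-fold towards J3T-1 (log2 ratio -3.80). Its other probe sets with a ratio also lay towards J3T-1, with log2 ratios from -3.85 to -0.73. J3T-2 was under the median on each of them, so all are lower bounds. ANK2 had 13.0 and 66.8, a bound of 3.52-fold towards J3T-2, with a log2 ratio of 0.76 by its other probe set. NEDD4L, a ubiquitin ligase that removes sodium channels from the membrane, had 331.2 and 869.5, 2.63-fold higher in J3T-2.

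Of 7 glioma and glial marker genes on the array 5 were measured, and 3 of these met the 2-fold call towards J3T-2. Of all measured genes 7.28% did. SOX2 had 411.1 in J3T-1 and 1191.0 in J3T-2, PDGFRA 43.7 and 98.9, and FABP7 14.8 and 82.1, where J3T-1 was under the median. FABP7 was thus measured through J3T-2 alone, so its ratio could only lie towards J3T-2. VIM had 8129.9 and 7960.8, and NES 55.3 and 69.3. GFAP (5.1 and 15.7) and S100B (1.1 and 5.0) were at or below the median on both arrays. The part of these differences in the ion channel values was not tested. Of the markers of other cells, 1 of 5 neuronal genes was above a median (SYT1, 14.2 and 25.2), 1 of 5 microglial and leukocyte genes (CD68, 19.5 and 23.0), 2 of 4 endothelial genes (CDH5, 36.8 and 26.5, and VWF, 21.0 and 22.8) and 1 of 4 smooth muscle and pericyte genes (ACTA2, 22.8 and 140.7). The neuronal genes RBFOX3, SYP, SNAP25 and STMN2 and the leukocyte gene PTPRC were at or below the median on both arrays.

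**Figure D5:**
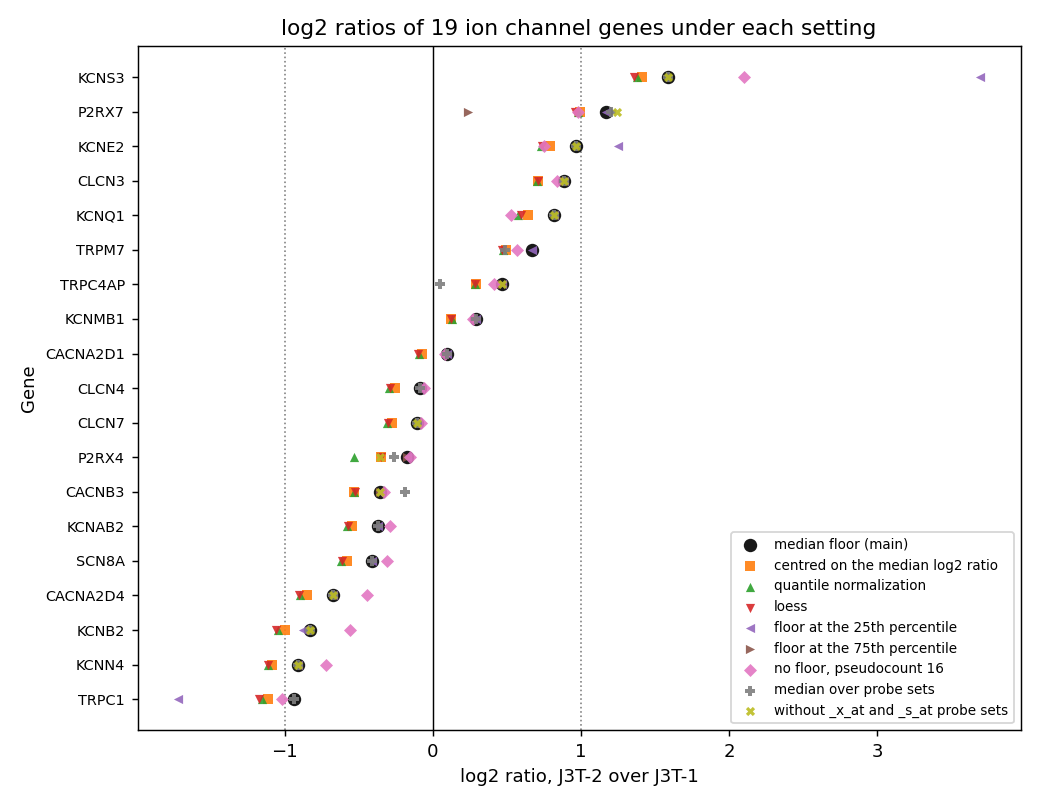
log2 ratio of J3T-2 over J3T-1 for 19 ion channel genes under the median floor (black circles) and each other setting that could measure them; dotted lines mark 2-fold. Of these genes CACNA2D1 alone changed sign, KCNS3 stayed beyond 2-fold, and P2RX7, KCNE2, KCNN4, KCNB2 and TRPC1 lay on either side of 2-fold. KCNS3 and KCNE2 passed the median floor in J3T-2 alone, and KCNB2 and TRPC1 in J3T-1 alone, so that floor fixed their direction.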

How the data were processed

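RNA of each subclone was hybridized to 1-colour canine arrays, 1 array each. The authors deposited 1 intensity per probe set and array, a linear MAS5 signal per the submitters' processing notes; for the MAS5 version and scaling target the status is "not given in the sources used here". Of 43035 probe sets, 111 were controls and left out; 439 others had several symbols and 13231 none. Before log2 ratios were taken, signals under the array's median were raised to it (the floor); arrays were not rescaled. A fold with 1 array at its floor is a lower bound. A call is a fold of at least 2. Precision is limited by the number of arrays. Genes named were those at least 2-fold apart, the 3 with the highest mean log2 signal per ion, the 3 largest folds under 2 each way and the 10 largest of the other list; further genes were named after their values were seen. Members and lists were chosen with earlier results of these data known. Values were recomputed under 8 other settings. Software was matplotlib 3.10.9, statsmodels 0.14.6, pandas 2.3.3, numpy 2.4.6 and Python 3.11.15. Coordinates are left out, since the array values name no build.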

Additional observations from a re-analysis of the deposited data

How the results depend on the processing

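KCNS3 was at least 2-fold higher in J3T-2 in each of the 8 settings that could measure it, and of 19 named genes CACNA2D1 alone changed sign. KCNS3 and KCNE2 passed the median floor in J3T-2 alone, and KCNB2 and TRPC1 in J3T-1 alone, so that floor fixed their direction. All settings reuse the same arrays, so agreement between them is not independent. Counts at least 2-fold apart were small, so single genes near 2-fold moved them, and members with signals near the floor limit the precision of every ratio. With centring, quantile normalization and loess, the genes higher in J3T-2 went from 2 to 1 (mixed cation 0) and those higher in J3T-1 from 0 to 3 (potassium 2, mixed cation 1). The shares of all measured genes moved too. Those higher in J3T-2 went from 7.28% to 4.89%, 4.64% and 4.64% in these settings. Those higher in J3T-1 went from 3.49% to 4.73%, 4.95% and 4.92%. The mixed cation median log2 ratio was -0.20 with quantile normalization. With the floor at the 25th percentile 116 genes were measured, 19 higher in J3T-2 (potassium 11, calcium 3, sodium 1, chloride 1, mixed cation 3) and 6 in J3T-1 (potassium 1, calcium 2, sodium 1, mixed cation 2), with medians of 0.20 for potassium and 0.045 for sodium. That floor lets in the dimmest signals, and 11.3% and 6.49% of all genes passed 2-fold in the same directions. With the floor at the 75th percentile 6 genes were measured and 0 were higher in J3T-2 (potassium 0, mixed cation 0), with medians of 0.27 over all, 0.30 for potassium and 0.89 for chloride channels, the last 2 from 1 gene each. Of all genes measured with that floor, 5.04% were higher in J3T-2. With no floor and a pseudocount of 16, all 145 genes entered, 1 was higher in J3T-2 (mixed cation 0) and 1 in J3T-1 (mixed cation 1), and the sodium median was 0.013. Of all genes, 3.53% and 1.98% passed 2-fold in those directions. Without _s_at and _x_at probe sets 18 genes were measured, and the median of all measured genes was 0.18. The medians were 0.18 for potassium (10 genes), -0.52 for calcium (2 genes), 0.39 for chloride (2 genes) and 0.41 for mixed cation channels (4 genes). This filter removed 14 of the 30 probe sets used. The median over probe sets moved no count. No paired analysis was possible because each subclone has 1 array.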
